A study of Arabidopsis thaliana with 12 samples.

Results

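The genes described here are 9 loci of the flavonoid and anthocyanin pathway, chosen by name out of 33557 loci in the expression table. Earlier results of these data were known when the 9 genes were chosen. They comprise 7 enzymes, CHS (AT5G13930), CHI (AT3G55120), F3H (AT3G51240), F3'H (AT5G07990), FLS1 (AT5G08640), DFR (AT5G42800) and LDOX (AT4G22880), and 2 MYB transcription factors, PAP1 (AT1G56650) and MYB12 (AT2G47460). Transcript abundance was given as FPKM, the number of sequenced fragments scaled to the length of the transcript and to the depth of the library, so levels of different genes can be compared. The samples were leaves of 5-week-old Arabidopsis thaliana Col-0 plants grown with 8 h of light and 16 h of darkness. Wild-type (WT) plants and 35S:HSFA1b plants, which carry an HSFA1b-RFP fusion driven by the constitutive 35S promoter, were each kept without stress (NS; 23 °C, 60% relative humidity) or heat stressed (HS; 37 °C for 30 min, 86% relative humidity). Both genotypes share the Col-0 background, the overexpressor is a single line, and each of the 4 groups has 3 biological replicates, given as columns 0, 1 and 2. HSFA1b is a transcription factor of the heat shock response, and the design asks how HS, and a higher level of HSFA1b, alter the leaf transcriptome.

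Flavonoids are made from phenylalanine, which the phenylpropanoid enzymes turn into an activated coumaric acid. Chalcone synthase (CHS), chalcone isomerase (CHI) and flavanone 3-hydroxylase (F3H) then build the shared precursors. From there flavonol synthase (FLS1) leads to flavonols, ultraviolet-absorbing compounds of the leaf epidermis, while dihydroflavonol reductase (DFR) and leucoanthocyanidin dioxygenase (LDOX) lead to the red and purple anthocyanins, and flavonoid 3'-hydroxylase (F3'H) adds a hydroxyl group used in both branches. In Arabidopsis, MYB12 is known as an activator of the early genes and PAP1 as an activator of the anthocyanin genes, the latter in a complex with basic helix-loop-helix factors such as TT8 and the WD40 protein TTG1.

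The 250 bases before the annotated start of CHS, F3H, DFR and LDOX are shown because CHS and F3H stand for the early genes, and because DFR and LDOX had nearly equal levels in all columns while their upstream sequences differ in the motifs searched. The sequences are from the RefSeq genome and annotation of TAIR10.1, read 5′ to 3′ on the gene's strand. Capitals mark the ACGT core, a sequence recognised by bZIP factors such as the light-response factor HY5, or the longer G-box CACGTG that contains it.
CHS, chr5:4488226-4488475, plus strand: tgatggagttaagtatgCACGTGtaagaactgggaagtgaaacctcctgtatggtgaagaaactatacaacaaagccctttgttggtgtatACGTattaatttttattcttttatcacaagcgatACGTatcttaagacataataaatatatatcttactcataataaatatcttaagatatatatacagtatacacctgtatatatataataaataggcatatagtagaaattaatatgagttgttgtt
F3H, chr3:19024942-19025191, plus strand: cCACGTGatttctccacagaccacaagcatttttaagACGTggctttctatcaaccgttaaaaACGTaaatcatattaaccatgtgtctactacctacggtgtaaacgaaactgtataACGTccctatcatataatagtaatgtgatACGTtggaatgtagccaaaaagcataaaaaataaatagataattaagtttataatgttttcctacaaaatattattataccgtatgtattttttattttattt
DFR, chr5:17166033-17166282, minus strand: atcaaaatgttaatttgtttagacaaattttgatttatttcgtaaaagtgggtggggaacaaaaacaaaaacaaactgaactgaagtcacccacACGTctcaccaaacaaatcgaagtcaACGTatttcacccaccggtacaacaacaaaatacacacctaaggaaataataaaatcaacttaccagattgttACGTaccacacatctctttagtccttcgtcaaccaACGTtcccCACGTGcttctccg
LDOX, chr4:12006210-12006459, minus strand: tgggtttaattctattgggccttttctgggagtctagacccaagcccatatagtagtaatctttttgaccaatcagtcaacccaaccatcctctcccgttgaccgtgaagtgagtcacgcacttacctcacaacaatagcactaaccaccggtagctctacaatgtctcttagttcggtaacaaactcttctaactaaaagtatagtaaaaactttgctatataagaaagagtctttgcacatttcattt

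Of the 9 genes, 4 held a G-box in this window, CHS, F3H, DFR and MYB12, against 6.49% of 27443 upstream windows of the same length. The same 4 genes were the ones with an ACGT core, which 44.1% of all windows held. The G-box began 233 bases before the start of CHS, 249 before F3H, 118 before MYB12 and 14 before DFR. The windows of CHI, F3'H, FLS1, LDOX and PAP1 contained neither sequence. The MYB recognition element ACCTACC, present in 1.16% of all windows on either strand, was not found in any of the 9 windows. The same held for both phases of the 3-unit heat shock element, each present in 0.386% of all windows.

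The level of HSFA1b matched the genotype labels, at 3.10 to 7.31 FPKM in WT columns and 330 to 624 FPKM in 35S:HSFA1b columns. The summed level of 5 leaf mesophyll markers was 44244 to 58789 FPKM in WT columns, 38530 FPKM in 1 column of 35S:HSFA1b under NS (column 2), and 11608 to 15639 FPKM in the other 5 columns of that line. Seed markers reached at most 0.24 FPKM and flower markers at most 0.46 FPKM. The names of the libraries carry 1 of 2 leading numbers, which all 6 WT libraries and 1 NS library of 35S:HSFA1b share against the other 5. Comparisons between the genotypes can therefore not be told apart from a difference between these library sets, whereas the HS response of WT lies within the first set. The HS response of 35S:HSFA1b sets 3 HS libraries of the second set against NS libraries of which 1 is of the first, so it is in part mixed with the set as well. In whole leaves, fewer cells of a type and less RNA per cell cannot be told apart.

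The early enzymes fell after 30 min of HS in both genotypes. CHS, which makes the first chalcone, was the most abundant of the 9 transcripts in every column, at 473, 524 and 690 FPKM in WT under NS and 214, 197 and 165 FPKM under HS. In 35S:HSFA1b its levels were 305, 438 and 502 FPKM under NS and 176, 204 and 156 FPKM under HS. All HS columns lay below all NS columns within each genotype. The log2 fold change of CHS, on log2(FPKM + 0.01), was -1.54 ± 0.21 in WT (SE, n = 3, limma adjusted p = 0.00066), a 2.91-fold lower level. In 35S:HSFA1b it was -1.19 ± 0.20 (limma adjusted p = 0.0008), a 2.28-fold lower level.

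CHI, which closes the ring of the chalcone, was at 46.7, 57.2 and 78.7 FPKM in WT under NS and at 13.6, 14.9 and 11 FPKM under HS. In 35S:HSFA1b the columns were 31.4, 52.0 and 45.5 FPKM under NS and 10.4, 10.9 and 8.70 FPKM under HS. The groups were again apart in both genotypes, with log2 fold changes of -2.18 ± 0.24 in WT (limma adjusted p = 0.00019) and -2.08 ± 0.22 in 35S:HSFA1b (limma adjusted p = 3.8e-05). F3H, the next enzyme, was at 108, 133 and 179 FPKM in WT under NS and at 26.6, 25.1 and 20.2 FPKM under HS. Its columns in 35S:HSFA1b were 79.8, 120 and 119 FPKM under NS and 20.4, 29.1 and 20.8 FPKM under HS. F3H thus fell 5.75-fold in WT (log2 fold change -2.52 ± 0.22, limma adjusted p = 5.3e-05) and 4.52-fold in 35S:HSFA1b (-2.18 ± 0.22, adjusted p = 3.1e-05).

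The annotation places a long non-coding RNA gene, AT3G51238, on the opposite strand over 94.5% of F3H, a stretch of 1588 bp. Its own listed levels were 2.50 ± 0.89 FPKM in WT under NS and 0.78 ± 0.30 FPKM under HS (SD, n = 3). Whether the counting used strand is not given in the sources used here, so reads of the sense and antisense gene cannot be told apart.

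FLS1, the main flavonol synthase of Arabidopsis, gave the largest HS response among the 9 genes in WT. Its columns were 67.7, 87.3 and 109 FPKM under NS and 11.8, 13.7 and 9.90 FPKM under HS, a 7.38-fold decrease (log2 fold change -2.88 ± 0.17, limma adjusted p = 5.4e-06). In 35S:HSFA1b it was at 44.7, 45.1 and 47.8 FPKM under NS and at 11.5, 13.4 and 11.9 FPKM under HS. All 3 NS columns of 35S:HSFA1b were below all 3 of WT. This held for no other of the 9 genes, and 1 of 9 is no more than the 19.8% of genes tested for which it held. The HS columns of the genotypes overlapped. Their difference under HS was 0.06 on the log2 scale with a 95% interval of -0.29 to 0.42.

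**Figure D1:**
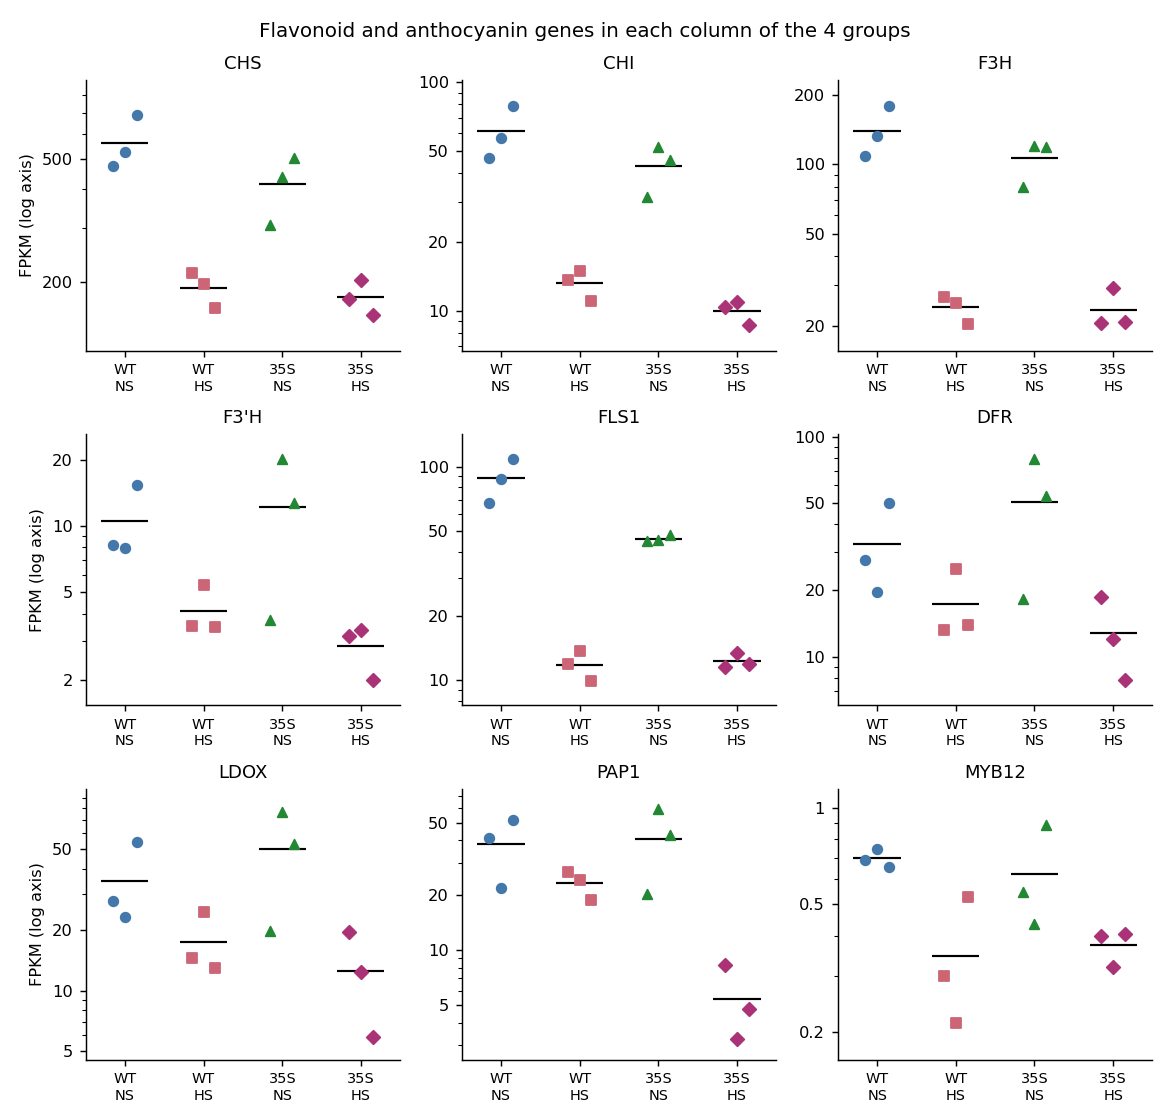
FPKM of each gene on a log axis in the 3 columns (points) of WT and 35S:HSFA1b under NS and HS, with the group mean as a line. CHS, CHI, F3H and FLS1 show NS columns above all HS columns in both genotypes, while F3'H, DFR, LDOX and PAP1 vary widely between the NS columns, such as 18.3 to 78.8 FPKM for DFR in 35S:HSFA1b.

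DFR, the first enzyme of the anthocyanin branch, was at 27.6, 19.6 and 49.9 FPKM in WT under NS and at 13.2, 25.1 and 14.0 FPKM under HS, so the groups overlapped. The log2 fold change was -0.85 ± 0.55, with a 95% interval of -2.09 to 0.39, and did not pass the test (limma adjusted p = 0.23). In 35S:HSFA1b DFR was at 18.3, 78.8 and 53.7 FPKM under NS and at 18.7, 12 and 7.83 FPKM under HS, where NS column 0 was slightly below HS column 0. The fit called this decrease of DFR (-1.82 ± 0.54 on the log2 scale, limma adjusted p = 0.019), although the columns overlapped.

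LDOX, which follows DFR in the branch, was at 27.7, 23.2 and 54.1 FPKM in WT under NS and at 14.5, 24.6 and 12.9 FPKM under HS. Its levels in 35S:HSFA1b were 19.8, 76.8 and 53.4 FPKM under NS and 19.4, 12.3 and 5.91 FPKM under HS. As for DFR, the WT groups overlapped (log2 fold change -0.97 ± 0.51, limma adjusted p = 0.15), and in 35S:HSFA1b the lowest NS column was close to the highest HS column (-1.95 ± 0.55, adjusted p = 0.016). A neighbouring locus, AT4G22870, shares 370 bp with LDOX at 96.2% identity and was listed at 0 in 11 of 12 columns and at 0.40 FPKM in the other. How reads that map to both loci were counted is not given in the sources used here.

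F3'H, the hydroxylase that sets the B-ring pattern, was at 8.24, 7.98 and 15.4 FPKM in WT under NS and at 3.52, 5.38 and 3.49 FPKM under HS. The WT groups did not overlap, but the change missed the threshold (log2 fold change -1.31 ± 0.56, limma adjusted p = 0.085). With only the WT columns in the fit, F3'H passed it (adjusted p = 0.019). In 35S:HSFA1b F3'H was at 3.74, 20.1 and 12.8 FPKM under NS and at 3.17, 3.38 and 2.00 FPKM under HS, and the decrease passed (-1.83 ± 0.52, limma adjusted p = 0.016).

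PAP1, the MYB activator of the anthocyanin genes, differed between the genotypes under HS. In WT its columns were 41.1, 22.0 and 52.0 FPKM under NS and 26.9, 24.2 and 18.9 FPKM under HS, which overlapped (log2 fold change -0.64 ± 0.42, limma adjusted p = 0.24). In 35S:HSFA1b they were 20.3, 59.2 and 42.9 FPKM under NS and 8.29, 3.25 and 4.72 FPKM under HS. All HS columns of 35S:HSFA1b were below every other column of the study. The same held for CHI and F3'H, and the share of all genes with such columns is not given here. In 35S:HSFA1b PAP1 fell 7.39-fold under HS (-2.88 ± 0.44 on the log2 scale, limma adjusted p = 0.00047).

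MYB12 was the least abundant of the 9 genes and had a mean under 1 FPKM, so it was not part of the fit. It was listed at 0.69, 0.75 and 0.65 FPKM in WT under NS and at 0.30, 0.21 and 0.53 FPKM under HS. In 35S:HSFA1b it was at 0.55, 0.44 and 0.88 FPKM under NS and at 0.40, 0.32 and 0.40 FPKM under HS. The HS columns were below the NS columns in both genotypes. The exact two-sided permutation p was 0.1 in each genotype, the smallest that 3 against 3 columns allow (0.2 after Benjamini-Hochberg adjustment over the 4 comparisons of MYB12).

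Of the 9 genes, 8 had a mean of at least 1 FPKM and were tested. In WT, 4 of these 8 fell under HS (CHS, CHI, F3H and FLS1), against 20.8% of 17710 genes tested, a share that became 26.9% after quantile normalization of the columns. In 35S:HSFA1b all 8 tested genes fell, against 19.7% of 17720, in the comparison that is in part mixed with the library set. The count of 8 became 5 without 35S:HSFA1b NS column 1, NS column 2 or HS column 2, since DFR, LDOX and F3'H then missed the threshold (adjusted p = 0.055 to 0.077), and DFR alone reached 0.05 without HS column 1, where its call was lost before rounding. Counted over all 9 genes, the HS columns were all below the NS columns for 6 genes in WT, against 26.1% of genes tested, and for 8 in 35S:HSFA1b, against 27.6%. The median log2 fold change of the 8 tested genes was -1.42 in WT and -1.93 in 35S:HSFA1b, and that of all genes tested was 0.02 in both.

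**Figure D2:**
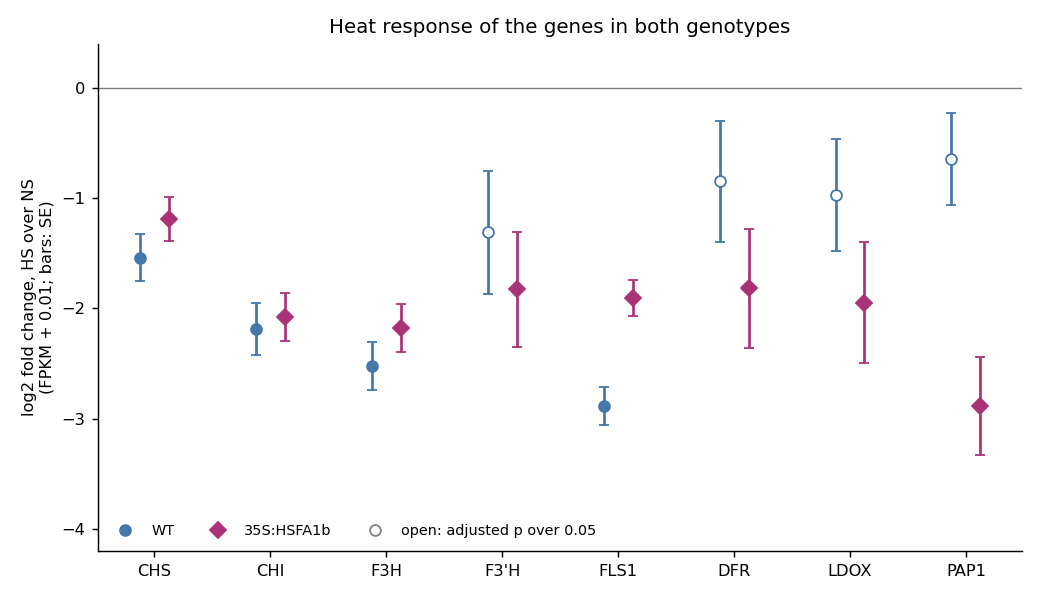
Log2 fold change of HS over NS (vertical axis, FPKM + 0.01) with its SE for the 8 tested genes in WT (circles) and 35S:HSFA1b (diamonds), open where the limma adjusted p is over 0.05. The early genes lie between -1.19 and -2.88 in both genotypes, whereas in WT the SE of F3'H, DFR, LDOX and PAP1 is 0.42 to 0.56 and none of these 4 passed.

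Under HS, the epidermis marker sum of 4 genes, among them the cuticle genes FDH and CER6, was also lower, through PDF1, CER6 and FDH, at 339 to 385 FPKM in WT against 452 to 495 FPKM under NS. In 35S:HSFA1b it was 222 to 250 FPKM under HS against 331 to 399 FPKM under NS. The fit called FDH lower in WT, and FDH and CER6 in 35S:HSFA1b. The other marker, ATML1, had means of 24.7 FPKM under NS and 30.0 FPKM under HS in WT (log2 value 0.27, adjusted p = 0.084) and 19.9 and 20.2 FPKM in 35S:HSFA1b. Of 3 guard cell markers, FAMA and MYB60 fell in WT, and in 35S:HSFA1b FAMA fell and KAT1 rose from 10.7 to 27.1 FPKM. The part of these shifts in the flavonoid values was not tested.

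The same NS columns of the WT group serve in the HS comparison and in the comparison of genotypes, so the results that follow share them with those above. Under NS, 1 of the 8 tested genes differed between the genotypes, against 3.65% of all genes tested called lower (1.77% after cyclic loess normalization, and 85 to 777 genes against 647 with single columns left out, the fewest without WT NS column 2) and 6.12% called higher. This was FLS1, 1.88-fold lower in 35S:HSFA1b (log2 difference -0.91 ± 0.17, limma adjusted p = 0.015). The call was lost without WT NS column 1 (adjusted p = 0.062) or 35S:HSFA1b NS column 1 (adjusted p = 0.067), with the difference at -0.91 and -0.90. In the same comparison 2 of 5 mesophyll markers were called lower, and the 5 had a median log2 difference of -1.35 (-1.87 to -1.29). Among the epidermis markers 1 of 4 was called lower, with a median of -0.37 and all 4 below 0. The root marker PYK10 was higher (1.45, limma adjusted p = 0.0033). The part of these markers in the value of FLS1 was not tested.

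CHS, CHI and F3H had log2 differences of -0.45 (95% interval -0.93 to 0.03), -0.50 (-1.03 to 0.03) and -0.39 (-0.89 to 0.11) and did not pass. Highly expressed genes as a whole were lower in the 35S:HSFA1b columns. The 274 genes between 300 and 1000 FPKM in WT under NS, the range that holds CHS, had median log2 differences of -0.54, -0.56 and -0.34 in the 3 NS columns of 35S:HSFA1b. After cyclic loess normalization, a scaling chosen after seeing the data that removes differences depending on the level, the value for CHS was -0.07. Among the 1273 genes between 50 and 100 FPKM, the range of FLS1, these medians were -0.13, -0.12 and -0.13, and the loess value of FLS1 was -0.89. DFR, LDOX, F3'H and PAP1 had wide intervals under NS, from -0.73 to 1.75 for DFR and from -0.90 to 0.99 for PAP1.

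Under HS, PAP1 was the 1 tested gene of the 8 that differed between the genotypes, 4.58-fold lower in 35S:HSFA1b (log2 difference -2.20 ± 0.44, limma adjusted p = 0.0041), against 16.8% of all genes tested that were called lower (11.1% after quantile normalization) and 12.1% higher. The count of 1 of 8 is near these shares. The 5 leaf mesophyll markers and 3 of the 4 epidermis markers were lower in the same comparison. Of the 3 guard cell markers 1 was called higher (median log2 difference of the 3 0.80), and the root marker PYK10 was higher (0.90). The part of these markers in the value of PAP1 was not tested. The PAP1 call held in all 16 alternatives of this comparison, with adjusted p from 0.0036 to 0.02. The remaining 7 genes had log2 differences of -0.57 to 0.06. Those of CHS and F3H changed sign with the scaling of the columns.

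The HS response itself differed between the genotypes for FLS1 and PAP1, in opposite directions. The decrease of FLS1 was smaller in 35S:HSFA1b by 0.98 ± 0.23 on the log2 scale (limma adjusted p = 0.021), against 3.94% of genes with a higher response, a share that became 6.89% after quantile normalization. With single columns left out, 306 (without 35S:HSFA1b NS column 2) to 1304 genes (without WT HS column 0) were called higher against 699. It passed the threshold in 17 of 21 alternatives. It missed it without WT NS column 1, 35S:HSFA1b NS column 1 or HS column 1 (adjusted p = 0.052, 0.051 and 0.055, difference 0.91 to 0.97) and where a log2 change of at least 1 was required. For PAP1 the difference of responses was -2.24 ± 0.63 (limma adjusted p = 0.042), against 7.97% of genes with a lower response, and this passed in 11 of 21 alternatives. It missed the threshold without WT NS column 1, WT HS column 0 or 1, or column 1 or 2 of either 35S:HSFA1b group (difference -1.88 to -2.21, adjusted p = 0.054 to 0.099), without the expression filter or the intensity trend, and after quantile normalization. For DFR and LDOX the differences were -0.97 (95% interval -2.64 to 0.70) and -0.98 (-2.69 to 0.74), and neither passed.

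The genes of the anthocyanin branch varied together between the NS columns of each genotype. In WT under NS, DFR, LDOX, F3'H and PAP1 were highest in column 2 and lowest in column 1. In 35S:HSFA1b under NS the same genes were highest in column 1 and lowest in column 0, where DFR spanned 4.32-fold and F3'H 5.38-fold. The SD of log2 levels between these 3 columns was 1.09 for DFR, 1.01 for LDOX, 1.25 for F3'H and 0.79 for PAP1, against a median of 0.14 over all genes tested. FLS1, with an SD of 0.05, and CHS, CHI and F3H, at 0.34 to 0.38, varied less. This order of columns was noticed in the values and is given as a description. It was read from these 4 of the 8 tested genes, so their sharing it is no test. Of all 17710 genes tested, 3.53% had this order. The 4 genes did not share 1 order under HS. In WT DFR, LDOX and F3'H were then highest in column 1 and PAP1 in column 0. In 35S:HSFA1b DFR, LDOX and PAP1 were highest in column 0 and F3'H in column 1.

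**Figure D3:**
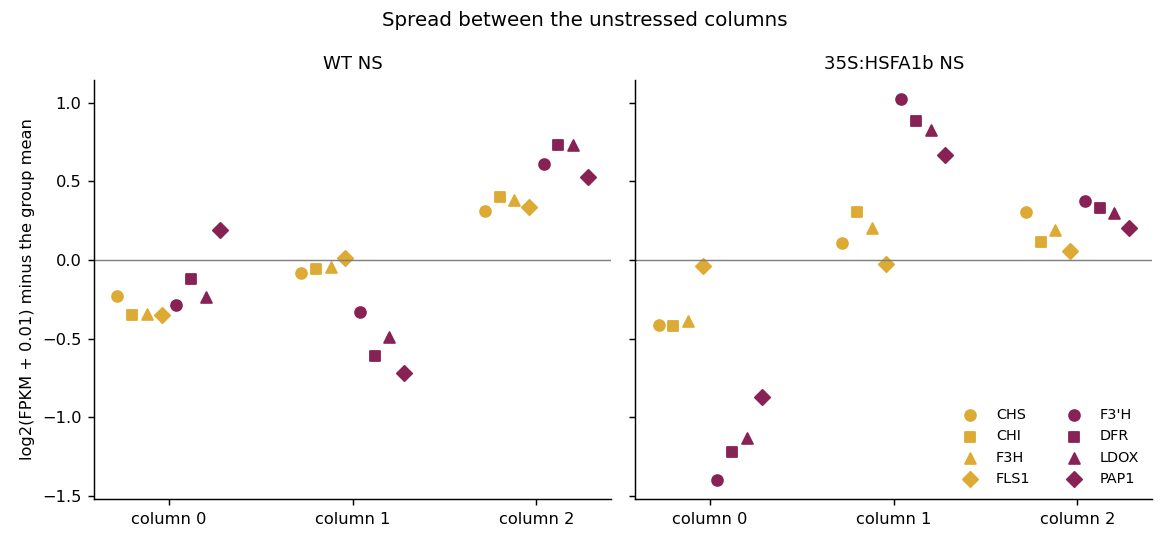
Log2(FPKM + 0.01) of 8 genes minus their group mean (vertical axis) in the NS columns of WT and 35S:HSFA1b, with CHS, CHI, F3H and FLS1 in yellow and F3'H, DFR, LDOX and PAP1 in purple. The purple points move together and farther than the yellow ones, most of all in 35S:HSFA1b, where the SD of F3'H is 1.25 and that of FLS1 0.05.

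The ratio of LDOX to DFR was 0.76 to 1.18 over the 12 columns, with a median of 1.01, while DFR itself ranged 10.1-fold. Measured by the root mean square difference of centred log2 levels over the 12 columns, LDOX was the gene nearest to DFR among 17719 genes (0.15) and F3'H the next (0.30). The 5 nearest genes that are not among the 9 were 5MAT, UGT75C1, TT19, TT8 and UGT79B1, at 0.34 to 0.38. UGT75C1, UGT79B1 and 5MAT attach sugars and a malonyl group to anthocyanins, TT19 is a glutathione S-transferase needed for their transport, and TT8 is the basic helix-loop-helix partner of PAP1. UGT75C1, for example, was at 15.9, 12.6 and 28.6 FPKM in WT under NS and at 9.44, 32.7 and 23.6 FPKM in 35S:HSFA1b under NS, with its extremes in the same columns as DFR.

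The ratio of PAP1 to DFR was 1.04 to 1.49 in WT under NS, 0.96 to 2.04 in WT under HS, and 0.75 to 1.11 in 35S:HSFA1b under NS. In 35S:HSFA1b under HS it was 0.27 to 0.60, below every other column. These ratios were computed after the values were seen and were not tested.

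**Figure D4:**
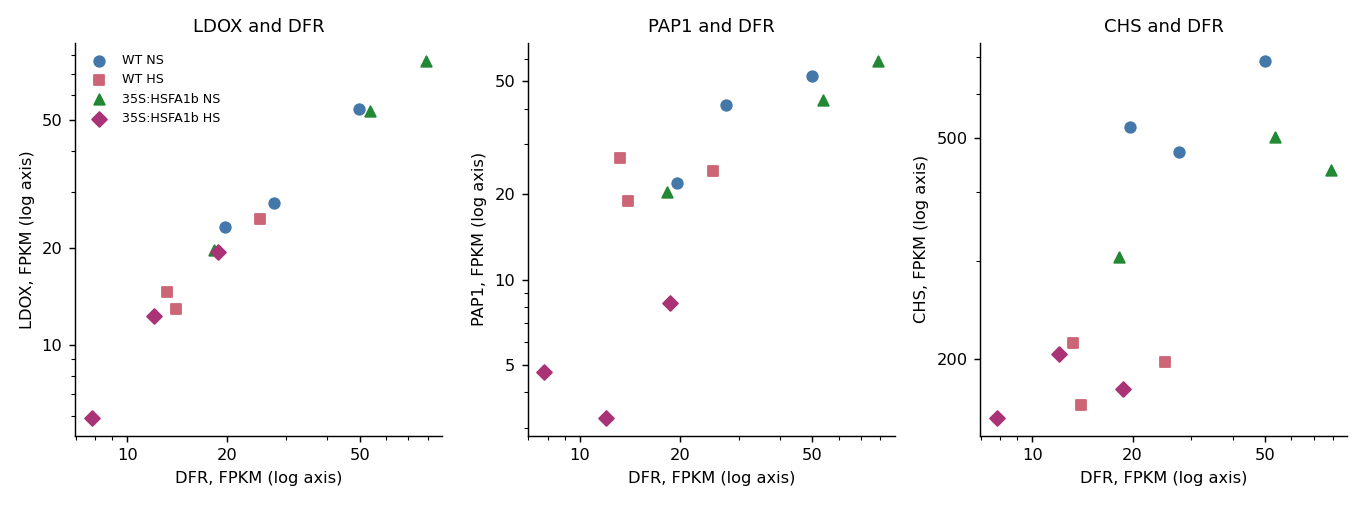
FPKM of LDOX, PAP1 and CHS (vertical log axes) against FPKM of DFR (horizontal log axis) in the 12 columns, with 1 symbol per group. LDOX keeps a ratio of 0.76 to 1.18 to DFR in all columns, PAP1 lies lower against DFR in 35S:HSFA1b under HS (0.27 to 0.60), and CHS separates NS from HS columns at like levels of DFR.

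The nearest profiles to CHS by the same measure were UGT84A2, UGT78D2, MAT3, AT5G35970 and RHM1, at 0.17 to 0.19. UGT84A2 makes sinapoyl glucose, UGT78D2 glucosylates flavonoids, RHM1 supplies UDP-rhamnose for flavonol glycosides, and MAT3 makes the methyl donor S-adenosylmethionine. UGT78D2 was at 66.7 ± 12.8 FPKM in WT under NS and 23.6 ± 2.6 FPKM under HS (SD, n = 3). CHI was 828th and F3H 1811th in this order, since they fell further than CHS.

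Beside the 9 genes, 57 other genes of the pathway were examined in 7 lists. All 8 phenylpropanoid entry genes, which encode the enzymes from phenylalanine to the CoA ester that CHS uses, fell under HS in both genotypes. Their median log2 fold change was -1.76 in WT and -1.72 in 35S:HSFA1b. Of all genes tested, 20.8% were called lower in WT and 19.7% in 35S:HSFA1b. PAL1, phenylalanine ammonia-lyase, fell from 135 ± 25 to 24.7 ± 3.3 FPKM in WT and from 105 ± 11 to 26.3 ± 1.0 FPKM in 35S:HSFA1b. The weakest response in this list was that of C4H, cinnamate 4-hydroxylase, at -0.98 in WT and -0.97 in 35S:HSFA1b.

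4CL3, the coumarate CoA ligase linked to flavonoid synthesis, was at 27.5, 38.2 and 47.5 FPKM in WT under NS and at 5.87, 5.00 and 3.65 FPKM under HS. In 35S:HSFA1b it was at 17.1, 21.0 and 20.8 FPKM under NS and at 4.78, 5.67 and 5.09 FPKM under HS. As for FLS1, the NS level was lower in 35S:HSFA1b (log2 difference -0.91 ± 0.23, limma adjusted p = 0.04) and the HS groups overlapped. PAL4 was instead higher in 35S:HSFA1b under NS (0.84 ± 0.18, adjusted p = 0.023). Leaving out single columns ended the NS call of 4CL3 for 5 of 6 columns (-0.73 to -1.12, adjusted p up to 0.14) and that of PAL4 for 4 of 6 (0.73 to 1.02, adjusted p up to 0.1).

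Of the 5 other core enzymes, 2 were tested. CHIL, a chalcone isomerase-like protein that aids CHS, fell in both genotypes, from 128 ± 33 to 22.4 ± 4.7 FPKM in WT and from 87.8 ± 13.6 to 23.2 ± 2.1 FPKM in 35S:HSFA1b. OMT1, a methyltransferase of flavonols and lignin precursors, fell in 35S:HSFA1b (-0.30, limma adjusted p = 0.049, lost without any of 5 of the 6 columns) and had a value of -0.13 in WT.

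Of 16 genes of decoration and transport, 13 were tested. In WT, 6 of these fell and 1 rose, with a median log2 fold change of -1.02, against 20.8% of all genes tested called lower and 23.7% called higher. In 35S:HSFA1b, 9 fell and 1 rose, with a median of -1.04, against 19.7% lower and 22.6% higher. With single columns left out, 4 to 6 of the decreases in WT and 6 to 8 of those in 35S:HSFA1b kept their call. UGT89C1, a flavonol 7-O-rhamnosyltransferase, fell from 122 ± 25 to 33.7 ± 3.3 FPKM in WT. The gene that rose was BGLU10, a member of the beta-glucosidase family, at 24.7, 18.2 and 22.3 FPKM in WT under NS and 28.7, 36.3 and 44.9 FPKM under HS. In 35S:HSFA1b BGLU10 was at 41.9, 48.8 and 41.4 FPKM under NS and 88.7, 119 and 98.7 FPKM under HS, above WT in each condition (limma adjusted p = 0.0082 under NS and 0.00012 under HS).

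Among 10 further activators, 5 were tested. EGL3, a basic helix-loop-helix partner of PAP1, fell in WT (-0.94, limma adjusted p = 0.022). In 35S:HSFA1b EGL3, TT8, TTG1 and MYB113 were called lower. The TTG1 call was lost without any of the 6 columns (-0.27 to -0.21, limma adjusted p = 0.058 to 0.12). The 1 call among 5 genes in WT is near the share of all genes tested called lower, 20.8%. In 35S:HSFA1b 4 of the 5 were called lower, against 19.7%. Without single columns, 0 to 1 of the calls in WT and 0 to 3 of those in 35S:HSFA1b were kept. TT8 was at 0.72, 3.0 and 2.04 FPKM in 35S:HSFA1b under NS and at 0.82, 0.56 and 0.17 FPKM under HS, which overlapped. MYB113, a MYB factor of the same subgroup as PAP1, was at 1.11, 4.51 and 3.22 FPKM under NS and at 1.23, 0.11 and 0 FPKM under HS in that genotype, also overlapping. MYB111, a flavonol regulator related to MYB12, had a log2 value of 0.75 in WT (adjusted p = 0.063) and 0.16 in 35S:HSFA1b, and passed in neither.

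All 7 repressors were tested. MYBL2, a small MYB protein that counters the PAP1 complex, fell in both genotypes, from 41.3, 41.6 and 52.3 FPKM to 22.0, 19.6 and 13.4 FPKM in WT and from 39.2, 46.1 and 41.3 FPKM to 9.13, 7.07 and 9.80 FPKM in 35S:HSFA1b. The difference of responses was -0.98 ± 0.26 on the log2 scale (limma adjusted p = 0.036), a call lost without any of 7 of the 12 columns (-0.83 to -1.19, adjusted p up to 0.088). SPL9 fell in both genotypes, and MYB4 fell and LBD37 rose in WT, the latter call lost after quantile normalization (0.25, adjusted p = 0.2). In 35S:HSFA1b MYB4 had a value of -0.12 and LBD37 of -0.15, and neither passed. LBD39, a repressor of anthocyanin genes under ample nitrogen, was higher in 35S:HSFA1b under HS (1.15 ± 0.20, adjusted p = 0.0019) and under NS (0.79 ± 0.18, adjusted p = 0.029), the latter call lost without any of 5 of the 6 columns. Between the genotypes under HS, 2 of the 7 repressors were called higher and 2 lower, against 12.1% and 16.8% of all genes tested. The other higher one was MYB4, its call kept for 4 of 6 columns left out. The lower ones were MYBL2 (-0.92 to -1.27 with single columns left out, call kept for all 6) and LBD37 (call kept for 2 of 6).

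Of 6 light input genes, 4 fell and 1 rose in each genotype, against 20.8% lower and 23.7% higher of all genes tested in WT and 19.7% and 22.6% in 35S:HSFA1b, so the 1 that rose is near that share. HYH, RUP1, RUP2 and COP1 fell and UVR8 rose in both. RUP1 and RUP2, which switch off the ultraviolet-B receptor UVR8, gave the largest decreases of the list. RUP2 went from 22.4 ± 0.9 to 6.30 ± 0.69 FPKM in WT and from 18.1 ± 3.7 to 3.47 ± 0.22 FPKM in 35S:HSFA1b. UVR8 rose from 33.6 ± 0.8 to 49.7 ± 3.3 FPKM in WT. HY5, a bZIP activator of CHS, had log2 values of 0.16 in WT (limma adjusted p = 0.41) and -0.40 in 35S:HSFA1b (adjusted p = 0.051).

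The last list holds 5 kelch F-box genes, whose products mark PAL or CHS protein for breakdown. KFB-CHS, which targets CHS, fell in both genotypes, from 35.2, 26.3 and 27.5 FPKM to 13.9, 18.0 and 13.9 FPKM in WT. In 35S:HSFA1b it went from 39.0, 44.8 and 47.1 FPKM to 9.49, 6.88 and 8.21 FPKM. The groups were apart in both, and the difference of responses was -1.46 ± 0.22 on the log2 scale (limma adjusted p = 0.0018), a call kept with each single column left out. KFB01, which targets PAL, rose in WT from 1.48 ± 0.82 to 4.37 ± 1.33 FPKM. KFB39 was listed at 0 in 9 columns and at 1.53, 4.27 and 7.64 FPKM in 35S:HSFA1b under HS.

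**Figure D5:**
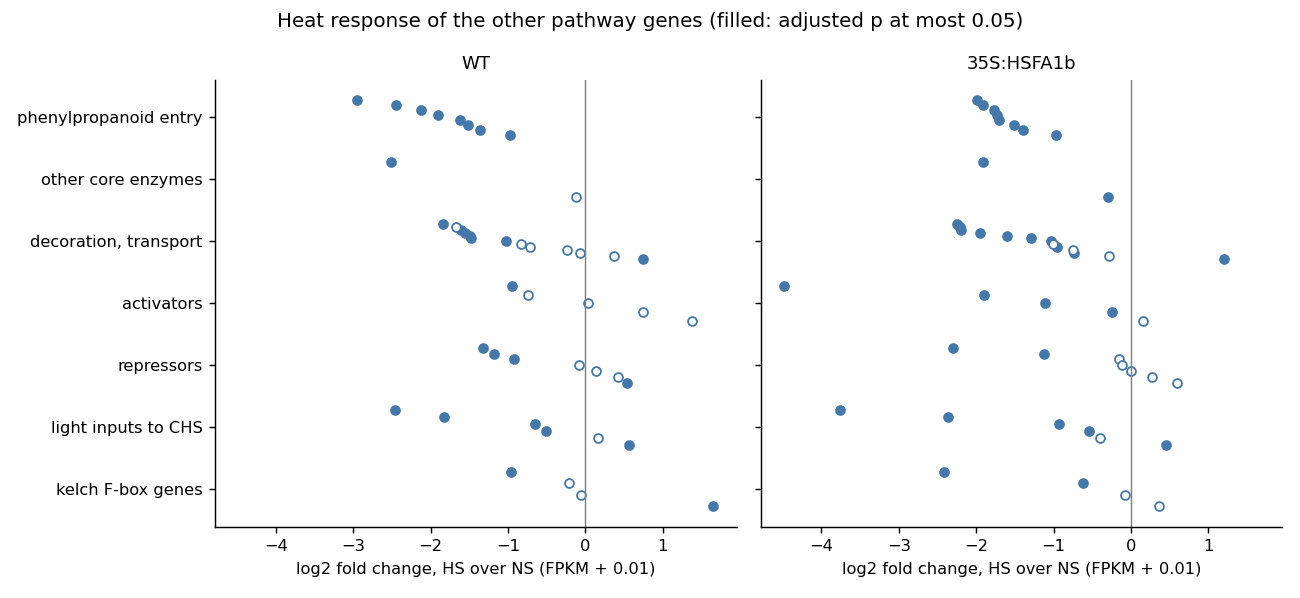
Log2 fold change of HS over NS (horizontal axis, FPKM + 0.01) of each tested gene of the 7 lists (rows) in WT and 35S:HSFA1b, filled where the limma adjusted p is at most 0.05; KFB39, listed at 0 in 9 columns, is not drawn. All 8 phenylpropanoid entry genes lie left of 0 in both genotypes, and BGLU10 is the filled point right of 0 in decoration and transport.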

How the data were processed

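RNA of 12 leaf libraries was sequenced. The authors mapped reads with GSNAP to TAIR10, ran Cufflinks and Cuffdiff with geometric scaling of the libraries, and deposited FPKM values of 33557 loci in 12 columns. Tool versions are not given in the sources used here, and the read counts behind the values are unknown. Steps between low values gave relative depths of 0.57 to 1.39 against WT NS column 0, so precision was taken from the 3 columns per group. Columns were assigned to groups by name. Their digits (0 to 2) are not tied to the replicate numbers of the labels. The genotype label reads wild type throughout, and the titles were followed.

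For tests with limma 3.58.1 (R 4.3.3; eBayes with trend, two-sided), values were taken as log2(FPKM + 0.01). A gene entered when its mean over the columns fitted reached 1 FPKM, and p-values were adjusted over all genes by Benjamini-Hochberg with a threshold of 0.05. The HS response of WT and the NS comparison of genotypes used the 9 columns of the 3 groups that the study's methods name, and the other comparisons all 12 columns. Values with ± are SE for log2 differences and SD for FPKM. MYB12 was tested with an exact permutation test.

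Named were all 9 genes, genes of the 7 lists that passed the threshold, the 5 nearest profiles to CHS and DFR, and control genes. AT3G51238 and AT4G22870 were added because they overlap or resemble one of the 9, and MYB111 and HY5 after their values were seen. The 9 genes and the lists were chosen with earlier results of these data known. Copies were searched with BLAST+ 2.17.0 (at least 100 bp at 90% identity), and positions and motifs, on both strands, with Python 3.11.15. Alternatives covered the pseudocount, filter, scaling, trend, groups fitted, fold size and single columns left out.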

Additional observations from a re-analysis of the deposited data

Results flagged for a closer look

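The HS response differed between 35S:HSFA1b and WT, by the interaction term of the limma fit, for FLS1 and PAP1 and, of the 57 other pathway genes, for 4 of the 46 tested (3 lower and 1 higher), a share near the 7.97% of all genes called lower and 3.94% called higher. The log2 difference, 35S:HSFA1b minus WT, was 0.977 for FLS1 (adjusted p = 0.021) and -2.2407 for PAP1 (adjusted p = 0.042). It was 1.0356 for 4CL3 (adjusted p = 0.045), -0.9757 for MYBL2 (adjusted p = 0.036), -0.6814 for LBD37 (adjusted p = 0.039) and -1.4627 for KFB-CHS (adjusted p = 0.0018). With each of the 12 columns left out in turn, the call was kept 12 times for KFB-CHS, 5 times each for MYBL2 and LBD37 and 2 times for 4CL3. All HS libraries of 35S:HSFA1b belong to the second library set, so these differences cannot be told apart from a difference between the sets.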

How the results depend on the processing

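No paired analysis was possible because the digits of the columns are not tied to the replicate numbers of the labels, so the planned fit with a replicate block was not run. The decreases of CHS, CHI, F3H and FLS1 under HS passed the threshold in WT in all 17 alternatives and in 35S:HSFA1b in all 16. When the log2 change also had to reach 1 in size, 2586 genes were called for HS in WT, 581 for the genotypes under NS (and 0 of the 8 pathway genes), 2083 for HS in 35S:HSFA1b, 1494 for the genotypes under HS and 1183 for the difference of HS responses (0 pathway genes higher). With 12 columns in 1 fit, the genotypes differed in 2624 genes under NS against 1731. The pathway genes with a lower HS response in 35S:HSFA1b went from 1 to 0 without the expression filter, after quantile normalization and without the intensity trend. Leaving out 1 column at a time gave 641 to 2148 genes for the genotypes under NS (pathway genes 0 to 1), 5 to 8 pathway genes for HS in 35S:HSFA1b, and 1161 to 3387 genes for the difference of responses (pathway genes 0 to 1 lower and 0 to 1 higher).

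Signs that turned all belonged to values that did not pass. Between genotypes under HS, CHS became 0.22 and F3H 0.0038 after quantile normalization, and 0.26 and 0.025 after cyclic loess normalization, which was chosen after seeing the data. Under NS, F3'H became 0.0080 with a pseudocount of 1. With single columns left out, PAP1 under NS ranged from -0.31 to 0.48, F3'H from -0.54 to 0.68 and LDOX from -0.0072 to 0.97. Under HS, F3H ranged from -0.21 to 0.047 and FLS1 from -0.058 to 0.17, and the CHI difference of responses from -0.10 to 0.28. Quantile normalization moved the median of all genes by -0.14 for HS in WT and by 0.14 for the difference of responses. It also moved the share of higher calls from 53.3% to 37.2% for HS in WT, from 42.0% to 54.1% for the genotypes under HS and from 33.1% to 52.7% for the difference of responses, and loess moved it from 62.6% to 77.9% for the genotypes under NS. The cause was not tested.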
